A study of Mus musculus with 8 samples.

Results

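The kinases of the mitogen-activated protein kinase (MAPK) cascade were compared, tier by tier, between reperfused livers of METTL3-HKD and METTL3-Flox mice. The members were the protein-coding genes of the deposited expression table whose symbol is Mapk, Map2k, Map3k, Map4k or Mapkapk followed by a number, and the symbol also set the tier. This gave 46 of the 54532 genes listed, namely 5 MAP4 kinases, 18 MAP3 kinases, 7 MAP2 kinases, 13 MAP kinases and 3 MAPK-activated kinases. All of them were read as mRNA, so neither protein nor phosphorylation was measured here.

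In this cascade a signal is passed on by phosphorylation. MAP4 kinases act on MAP3 kinases, which phosphorylate MAP2 kinases, which in turn phosphorylate the MAP kinases ERK, JNK and p38. The MAP kinases act on transcription factors and on further kinases such as MK2, and dual-specificity phosphatases switch them off again. In liver, JNK and p38 are known as kinases of the stress response and ERK as a kinase of the proliferative response, and all of them are engaged when blood flow returns to ischemic tissue.

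The study sequenced mRNA from the livers of 8 mice, 4 per group, each subjected to partial warm ischemia for 1 h with reperfusion for 6 h. METTL3-HKD mice carried METTL3 flox/- with Alb-iCre, which the study describes as a heterozygous state with reduced METTL3, an m6A RNA methyltransferase, in hepatocytes. Their controls, the METTL3-Flox mice, carried METTL3 flox/flox without the Cre, and both groups had the same surgery, so neither is an unoperated control. The recombinase is driven by the albumin promoter and thus acts in hepatocytes and cells derived from albumin-expressing precursors, whereas the RNA came from whole liver. Age and sex of the sequenced mice are not in the labels used here, and each library is labelled as a mouse of its own. Values are FPKM, that is fragments per kilobase of gene length relative to library size. Division by gene length lets levels of different genes be set side by side, within the limits of shared exons given below. The values had already been scaled between libraries by the authors. The depth on genes was 15861245 to 18434488 reads per liver.

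Mettl3 itself had a mean of 1.33 ± 0.181 FPKM (SD, n = 4) in METTL3-HKD livers and 1.50 ± 0.282 FPKM (SD, n = 4) in METTL3-Flox livers, a log2 fold change of −0.16 that missed the threshold (limma, Benjamini-Hochberg adjusted p = 0.556), so the whole-gene value did not check the genotype. Hepatocyte genes were abundant in every liver, with a summed level of 22656 to 32689 FPKM over 8 markers in METTL3-HKD livers and 29159 to 33064 FPKM in METTL3-Flox livers, and 1 of the 8 (Hnf4a) was lower. Of 10 neutrophil markers, 8 were higher in METTL3-HKD livers. Summed over the list, METTL3-HKD livers 1 to 4 had 1640, 384, 334 and 549 FPKM, and METTL3-Flox livers had 13.2 to 45.7 FPKM. Cholangiocyte markers were higher for 4 of 5 tested (sums of 119 to 369 against 52.5 to 77.6 FPKM), Kupffer cell and macrophage markers were lower for 4 of 8 (96.7 to 199 against 199 to 478 FPKM), and 0 of 3 tested T and B lymphocyte markers passed the test, with a further 4 too low to test. Of 6 markers each, 1 was lower for sinusoidal endothelium (50.8 to 57.5 against 56.2 to 66.4 FPKM), and 1 was higher and 1 lower for stellate cells (33.1 to 44.0 against 30.4 to 50.5 FPKM). In bulk liver, fewer cells of a type and less RNA per cell cannot be told apart, and the part of these cell types in the kinase results below was not tested.

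More kinase genes were higher than lower in METTL3-HKD livers. The genes past the threshold were spread over all 5 tiers, and the JNK and p38 genes were not among them in this fit. Of the 46 genes, 42 reached a mean of 0.1 FPKM and were tested. At an adjusted p under 0.05, 9 were higher in METTL3-HKD livers (21.4% of 42, against 9.05% of all 16645 genes tested) and 2 were lower (4.76%, against 6.63% of all genes). The higher genes were Map4k4, Map4k5, Map3k6, Map3k8, Map3k14, Map2k4, Mapk6, Mapkapk2 and Mapkapk3, and the lower genes were Map3k21 and Mapk15. All 11 had a mean above 1 FPKM. With a fold change of at least 2 in addition, 3 were upregulated (Map3k6, Map4k4 and Mapkapk3; 4.7% of all genes) and 1 was downregulated (Mapk15; 1.52% of all genes). The median log2 fold change was 0.16 over the tested kinases and −0.00 over all genes tested, and the estimate was positive for 29 kinases and negative for 13. All METTL3-HKD livers were above all METTL3-Flox livers for 12 kinases (28.6%, against 12.7% of all genes tested) and below them for 6 (14.3%, against 9.95%). Of these 18 genes, 7 had not passed the adjusted threshold. At an unadjusted p under 0.05, 14 kinases were higher (33.3%, against 16.7% of all genes) and 6 were lower (14.3%, against 15.1%). The kinases were all protein-coding, whereas the genes tested also included others. In a fit of protein-coding genes only, 10 kinases were higher and 3 lower at an adjusted p under 0.05, against 1635 and 1196 of the 13125 genes in that fit.

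These counts changed when single livers were left out, and so did those of all genes. The 9 higher kinases became 5 without METTL3-HKD liver 1, without METTL3-HKD liver 2, without METTL3-Flox liver 3 or without METTL3-Flox liver 4, and 6 without METTL3-Flox liver 2. In these fits, in the same order, the higher genes among all tested numbered 783, 865, 747, 924 and 943, down from 1506. Without METTL3-HKD liver 2, 1 kinase was lower instead of 2, and 571 of all genes were lower instead of 1104. Without METTL3-HKD liver 2 or METTL3-Flox liver 3, 0 kinases were downregulated at least 2-fold. Scaling each library to its reads on genes shifted the median of all genes from −0.00 to 0.20 and that of the kinases from 0.16 to 0.36. Because scaling multiplies all genes of a liver by the same factor, the gap of 0.17 between these medians could hardly change and tests nothing. That scaling also moved the share of higher genes among all genes past the threshold from 57.7% to 86.1%.

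**Figure D1:**
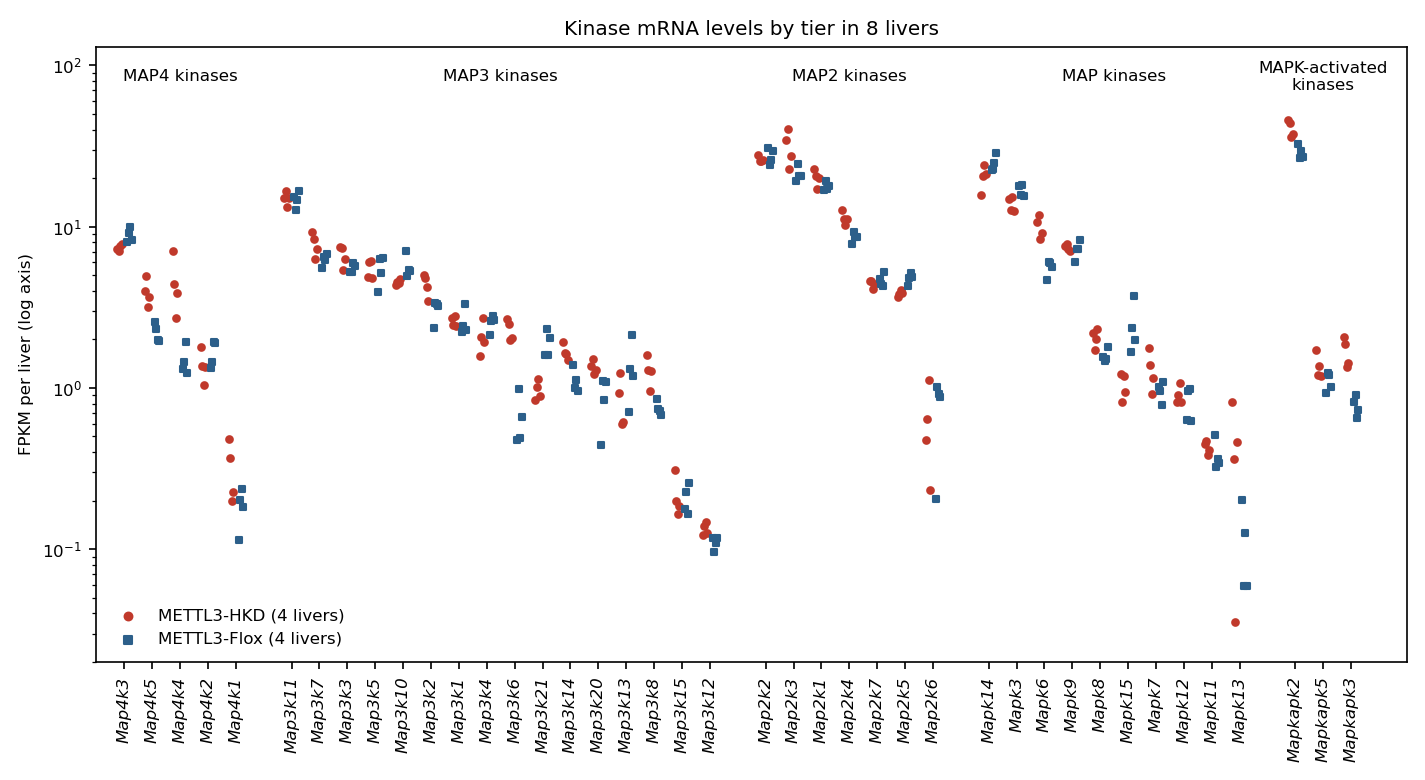
Level of 41 tested kinase genes in each liver, in FPKM on a log axis, grouped by tier and ordered by mean level within a tier (red circles, 4 METTL3-HKD livers; blue squares, 4 METTL3-Flox livers). Mapkapk2 has the highest mean, at 36.0 to 45.8 FPKM in METTL3-HKD livers and 26.8 to 32.7 FPKM in METTL3-Flox livers, and the lower end of each tier lies near or under 1 FPKM.

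The promoters of the 2 genes that were higher with the smallest adjusted p and of the lower gene with the smallest adjusted p are shown as the start regions of members at the ends of the range. Each is 300 bases, 250 before and 50 after the RefSeq start, read 5′ to 3′ on the gene's strand from GRCm38.p6. Capitals mark matches, on either strand, to TGANTCA (an AP-1 motif), TGACGTCA (a CRE motif) or GGGCGG (a GC box). Map3k6 (chr4:133240568-133240867, plus strand) held no match. Mapk6 (chr9:75409967-75410266, minus strand) held 3 GC boxes, and so did a second RefSeq promoter of this gene (chr9:75409310-75409609), which is not shown because it does not span the gene's start in the deposited table. Map3k21 (chr8:125910200-125910499, plus strand) held 1 GC box.
Map3k6: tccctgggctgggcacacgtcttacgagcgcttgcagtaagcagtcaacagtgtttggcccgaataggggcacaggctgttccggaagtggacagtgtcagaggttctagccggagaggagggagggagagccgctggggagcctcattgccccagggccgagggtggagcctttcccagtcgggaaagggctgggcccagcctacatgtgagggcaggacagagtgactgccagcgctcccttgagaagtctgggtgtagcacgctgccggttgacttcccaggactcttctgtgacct
Mapk6: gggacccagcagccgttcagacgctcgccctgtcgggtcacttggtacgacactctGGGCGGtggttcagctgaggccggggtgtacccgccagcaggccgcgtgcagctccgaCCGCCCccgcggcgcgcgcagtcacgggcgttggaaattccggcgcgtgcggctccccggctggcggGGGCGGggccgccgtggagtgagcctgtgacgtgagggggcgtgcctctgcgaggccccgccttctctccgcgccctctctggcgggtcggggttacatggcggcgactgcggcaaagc
Map3k21: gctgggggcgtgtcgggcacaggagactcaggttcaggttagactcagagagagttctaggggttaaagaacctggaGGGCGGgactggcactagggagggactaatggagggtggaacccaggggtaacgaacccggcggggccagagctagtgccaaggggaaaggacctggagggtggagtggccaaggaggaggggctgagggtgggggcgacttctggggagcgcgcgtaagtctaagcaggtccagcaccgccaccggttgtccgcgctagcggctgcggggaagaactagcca
The RefSeq promoter table matched 37 of the 46 kinases by symbol, with 50 promoters. Those without an entry included Map3k15, Map3k19, Map3k2, Map3k8, Map4k4, Mapk15, Mapk3 and Mapk4. A GC box was present in 58% of the 50 kinase promoters and in 35.7% of all 32851 promoters, TGANTCA in 6% and 7.81%, and TGACGTCA in 2% and 1.79%. Median GC content was 63.8% in kinase promoters and 52.7% in all promoters. The kinases are all protein-coding, whereas the set of all promoters was not limited to protein-coding genes here. These gaps therefore cannot be read as traits of the kinases. Of the 11 promoters of 8 genes that passed the test, 6 held a GC box (54.5%) and 0 held either of the other motifs, which says only that these letters are not within these windows. A motif match is a description of the sequence and not a binding site.

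At the top of the cascade, Map4k4 and Map4k5 were higher in METTL3-HKD livers, whereas Map4k3, the most abundant MAP4 kinase mRNA, was not. Map4k4 (chr1:39900913-40026310, plus strand), which encodes HGK, a germinal centre kinase family member that acts towards JNK, measured 7.02, 4.40, 2.70 and 3.88 FPKM in METTL3-HKD livers 1 to 4 against 1.31, 1.45, 1.94 and 1.25 FPKM in METTL3-Flox livers 1 to 4. The lowest value of METTL3-HKD mice exceeded the highest of METTL3-Flox mice, and METTL3-HKD liver 1 was furthest up. The mean was 4.50 ± 1.82 FPKM against 1.49 ± 0.313 FPKM (SD, n = 4 each), a log2 fold change of 1.47 (SE 0.266, limma adjusted p = 0.0109; exact permutation test, two-sided, p = 0.0286, the smallest that 4 against 4 allows and the value for each of the 11 genes past the threshold). Below, per-liver values are given in the order of the liver numbers.

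Map4k5 (chr12:69803750-69893200, minus strand) encodes a kinase of the same family. It measured 4.02, 4.93, 3.16 and 3.66 FPKM in METTL3-HKD livers against 2.56, 2.33, 1.99 and 1.96 FPKM in METTL3-Flox livers. The groups did not overlap, and the log2 fold change was 0.80 (SE 0.154, limma adjusted p = 0.0132). Its exons share 548 bases with Atl1 on the opposite strand, which had a mean of 0.304 FPKM, and the strand setting is not given in the sources used here. Map4k3, known as GLK, measured 7.26, 7.11, 7.62 and 7.85 FPKM against 8.07, 9.07, 9.95 and 8.22 FPKM. All METTL3-HKD values were below all METTL3-Flox values, but the log2 fold change of −0.24 missed the adjusted threshold (limma unadjusted p = 0.0331, adjusted p = 0.120) and was −0.02 with scaling to reads on genes. Map4k1, a kinase of blood cells known as HPK1, had means of 0.320 and 0.183 FPKM and Map4k2 had 1.39 and 1.65 FPKM, and the groups overlapped for both. The summed level of the tier was 17.6 ± 2.44 FPKM in METTL3-HKD livers and 14.4 ± 1.23 FPKM in METTL3-Flox livers (SD, n = 4 each), with overlapping ranges.

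Among the 16 tested MAP3 kinases, 3 were higher and 1 was lower. Map3k6 (chr4:133240818-133252929, plus strand), which encodes ASK2, a partner of the stress kinase ASK1, had the largest estimate of the tested kinase genes on the log2(FPKM + 0.1) scale, although Map4k4 exceeded it with a pseudocount of 1 FPKM (1.10 against 1.00) and the low gene Mapk13 had a larger ratio of means. It measured 2.67, 2.50, 1.97 and 2.05 FPKM in METTL3-HKD livers and 0.474, 0.981, 0.486 and 0.661 FPKM in METTL3-Flox livers. The lowest METTL3-HKD liver was above the highest METTL3-Flox liver, and the means of 2.30 ± 0.341 and 0.650 ± 0.237 FPKM (SD, n = 4 each) differed 3.53-fold. Its log2 fold change was 1.71 (SE 0.222, limma adjusted p = 0.00382) and rested on 164 to 247 reads in METTL3-HKD and 31 to 73 reads in METTL3-Flox mice. Map3k5, which encodes ASK1 itself, had means of 5.45 and 5.44 FPKM, with a 95% interval of the log2 fold change from −0.36 to 0.40.

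Map3k8, on chromosome 18, encodes TPL2, the kinase that links Toll-like and TNF receptors to MEK and ERK. It measured 1.60, 1.29, 0.959 and 1.27 FPKM against 0.859, 0.742, 0.716 and 0.676 FPKM. METTL3-HKD liver 3, the lowest of its group, was still above METTL3-Flox liver 1, the highest of its group. The log2 fold change was 0.68 (SE 0.172, limma adjusted p = 0.0306). The adjusted p was 0.0651 to 0.0782 without METTL3-HKD liver 1, 2 or 4 or METTL3-Flox liver 2, 3 or 4.

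Map3k14 (chr11:103219762-103267472, minus strand) encodes NIK, the kinase of the noncanonical NF-kB pathway. It measured 1.93, 1.64, 1.62 and 1.50 FPKM against 1.40, 0.992, 1.12 and 0.958 FPKM. The groups were separated by the gap between METTL3-HKD liver 4 and METTL3-Flox liver 1. Its log2 fold change of 0.55 (SE 0.152, limma adjusted p = 0.0413) was the one nearest to the threshold among the 11 genes, and the adjusted p was 0.0599 to 0.107 when any METTL3-HKD liver or METTL3-Flox liver 2, 3 or 4 was left out. Its exons share 135 bases with 1700028N14Rik, which had a mean of 0.0680 FPKM.

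The lower gene of the tier was Map3k21 (chr8:125910450-125947440, plus strand), which encodes the mixed-lineage kinase MLK4. It measured 0.838, 1.01, 1.13 and 0.888 FPKM in METTL3-HKD livers and 1.61, 2.32, 1.61 and 2.05 FPKM in METTL3-Flox livers. Every METTL3-HKD value lay under every METTL3-Flox value. The log2 fold change was −0.90 (SE 0.163, limma adjusted p = 0.0110) and was −0.70 (adjusted p = 0.0365) with scaling to reads on genes. Map3k11, which encodes the related kinase MLK3, was the most abundant MAP3 kinase mRNA. It measured 15.1, 16.6, 13.3 and 15.0 FPKM against 15.2, 12.6, 14.6 and 16.7 FPKM, and the groups overlapped almost wholly (95% interval of the log2 fold change from −0.23 to 0.27).

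A further 4 MAP3 kinases had an unadjusted p under 0.05 in limma without passing the adjusted threshold. Their log2 fold changes were 0.50 for Map3k2 (MEKK2), 0.64 for Map3k20 (ZAK, a sensor of ribosome stalling), 0.30 for Map3k7 (TAK1, the shared kinase of the IL-1, TNF and TGF-beta pathways) and −0.31 for Map3k10 (MLK2). Map3k2 passed the adjusted threshold in 4 of the 18 alternatives, among them the fit without METTL3-HKD liver 4 (adjusted p = 0.0431). The other 8 tested genes, which were Map3k1, Map3k3, Map3k4, Map3k5, Map3k11, Map3k12, Map3k13 and Map3k15, had log2 fold changes from −0.57 to 0.24. Map3k12 and Map3k15 had means near the minimum, and their exons overlap those of the more abundant Pcbp2 (16.5 FPKM) and Pdha1 (23.0 FPKM) on the opposite strand. Of the genes too low to test, Map3k9 (MLK1) had 4 to 30 reads in METTL3-HKD and 0 to 3 reads in METTL3-Flox mice, and Map3k19 had 0 reads in METTL3-HKD and 0 to 2 reads in METTL3-Flox mice. The summed level of the tier was 57.3 ± 4.38 FPKM against 52.8 ± 2.81 FPKM (SD, n = 4 each), with overlapping ranges.

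**Figure D2:**
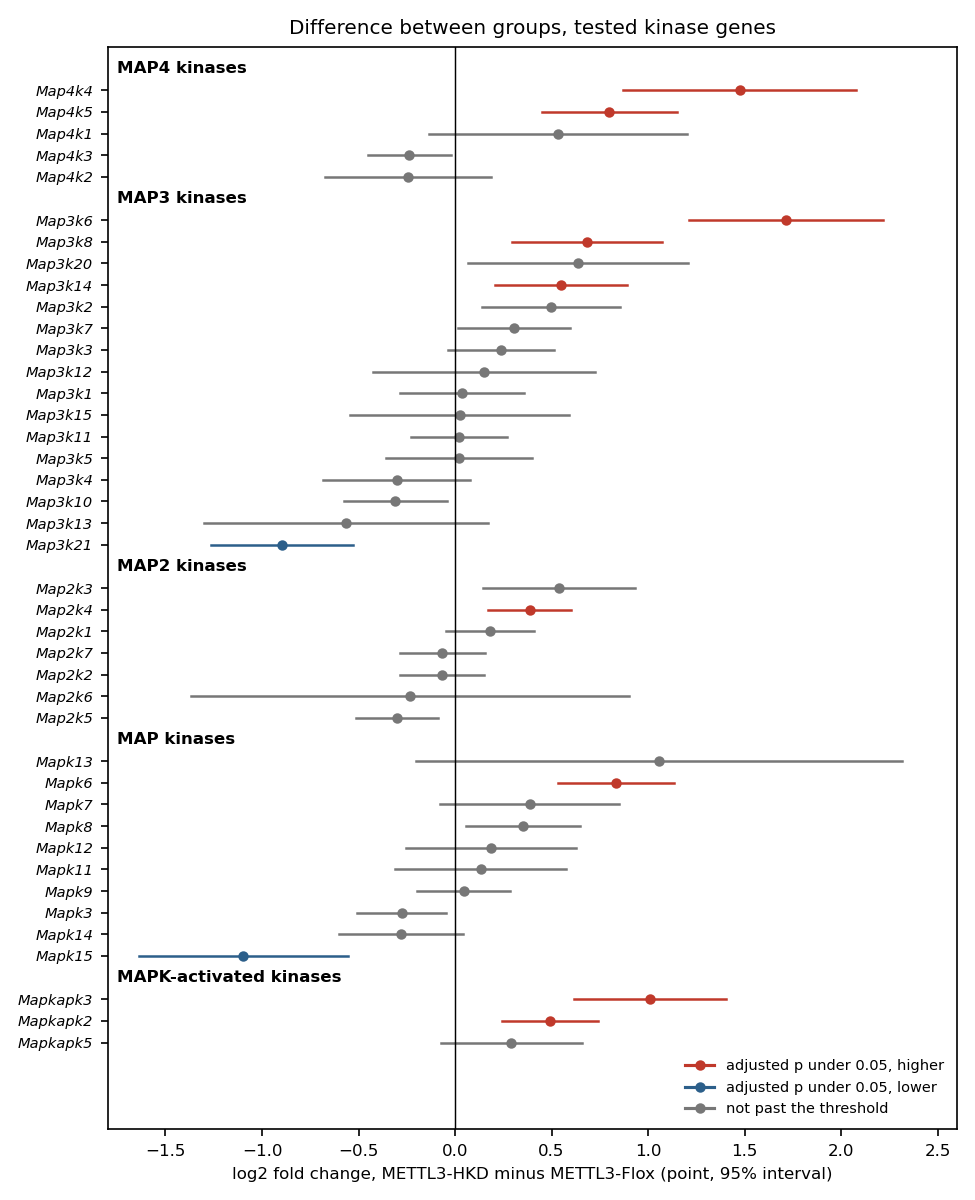
Log2 fold change of 41 tested kinase genes, METTL3-HKD minus METTL3-Flox, from limma on log2(FPKM + 0.1), with 95% intervals (n = 4 livers per group), ordered by size within each tier (red, higher and blue, lower at an adjusted p under 0.05; grey, not past the threshold). Map3k6 is furthest to the right at 1.71 and Mapk15 furthest to the left at −1.10, and with scaling to reads on genes the estimates of Map2k2 and Map2k7 turn from −0.07 to 0.15.

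MAP2 kinases phosphorylate the MAP kinases directly, each with its own choice of target. Of the 7, Map2k4 was higher and 0 were lower at an adjusted p under 0.05 in limma, with Map2k5 lower at an unadjusted p under 0.05. Map2k4 (chr11:65688243-65788297, minus strand), which encodes MKK4, an activator of JNK, measured 12.6, 11.2, 10.2 and 11.2 FPKM in METTL3-HKD livers and 7.85, 9.32, 8.63 and 8.68 FPKM in METTL3-Flox livers. The groups did not overlap, and the difference was small, with means of 11.3 ± 0.998 and 8.62 ± 0.602 FPKM (SD, n = 4 each) and a log2 fold change of 0.39 (SE 0.0951, limma adjusted p = 0.0287). The adjusted p was 0.0600 to 0.0736 without METTL3-HKD liver 1, 2 or 4 or METTL3-Flox liver 3 or 4. Map2k7, which encodes MKK7, the other JNK activator, had means of 4.44 and 4.66 FPKM, with overlapping groups. Of its annotated exon length, 35.2% is shared with Gm49320 on the same strand, which had a mean of 0 FPKM.

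The ERK activators Map2k1 (MEK1) and Map2k2 (MEK2) did not pass the test. Map2k2, the most abundant of the tier, measured 27.8, 25.6, 25.4 and 26.0 FPKM against 30.8, 24.2, 25.8 and 29.4 FPKM. The groups overlapped, and the log2 fold change of −0.07 (95% interval from −0.29 to 0.15) turned to 0.15 with scaling to reads on genes. Map2k1 had means of 20.1 and 17.7 FPKM (log2 fold change 0.18, limma adjusted p = 0.252). Map2k3, an activator of p38, had means of 31.4 and 21.1 FPKM and a log2 fold change of 0.54 that missed the threshold (limma unadjusted p = 0.0129, adjusted p = 0.0668), with overlapping groups, and passed it without METTL3-HKD liver 3 (adjusted p = 0.0204). Map2k6, also a p38 activator, had means of 0.620 and 0.753 FPKM and the widest interval of the tier, from −1.37 to 0.90 on the log2 scale. Map2k5, the activator of ERK5, had a log2 fold change of −0.30 (limma unadjusted p = 0.0107, adjusted p = 0.0597), with all METTL3-HKD values below all METTL3-Flox values, and passed the threshold without METTL3-Flox liver 1 (adjusted p = 0.0337). The tier summed to 98.0 ± 10.9 FPKM against 85.3 ± 2.53 FPKM (SD, n = 4 each), with overlapping ranges.

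Among the MAP kinases themselves, the JNK and p38 genes did not pass the adjusted threshold with all livers, and the 2 genes of the tier that did are atypical family members. At an unadjusted p under 0.05 in limma, Mapk8 was on the higher and Mapk3 on the lower side. Mapk6 (chr9:75369062-75410005, minus strand), which encodes the atypical kinase ERK3, measured 10.6, 11.8, 8.43 and 9.14 FPKM in METTL3-HKD livers and 4.64, 6.01, 5.92 and 5.61 FPKM in METTL3-Flox livers. Each METTL3-HKD liver exceeded every METTL3-Flox liver. The means differed 1.80-fold, with a log2 fold change of 0.83 (SE 0.132, limma adjusted p = 0.00736). Mapk15 (chr15:75993769-75999154, plus strand) encodes another atypical kinase, linked to autophagy and cilia. It measured 1.22, 0.823, 1.19 and 0.945 FPKM against 1.67, 2.34, 3.70 and 1.99 FPKM. METTL3-HKD livers were all lower, and METTL3-Flox liver 3 stood highest. The log2 fold change was −1.10 (SE 0.239, limma adjusted p = 0.0195), −0.90 with scaling to reads on genes (adjusted p = 0.0473), and missed the threshold without METTL3-HKD liver 2 (adjusted p = 0.0513). The reads behind these values numbered 39 to 63 in METTL3-HKD and 61 to 144 in METTL3-Flox mice.

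Mapk3 (ERK1), which answers to growth factors through MEK, did not pass the threshold. It measured 14.8, 12.7, 15.2 and 12.6 FPKM in METTL3-HKD livers and 17.8, 15.6, 18.2 and 15.4 FPKM in METTL3-Flox livers. All METTL3-HKD values were lower, with a log2 fold change of −0.28 (95% interval from −0.51 to −0.04, limma unadjusted p = 0.0246, adjusted p = 0.0991) that was −0.06 with scaling to reads on genes.

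The JNK genes Mapk8 (JNK1) and Mapk9 (JNK2) differed less than the threshold required. Mapk8 measured 2.20, 1.71, 2.01 and 2.30 FPKM against 1.55, 1.48, 1.52 and 1.79 FPKM. Only METTL3-HKD liver 2 fell within the METTL3-Flox range, and the log2 fold change was 0.35 (95% interval from 0.06 to 0.65, limma unadjusted p = 0.0241, adjusted p = 0.0977, and 0.0387 with scaling to reads on genes). Mapk9 measured 7.56, 7.82, 7.23 and 7.04 FPKM against 6.08, 7.23, 7.30 and 8.29 FPKM. These groups overlapped, with a 95% interval of the log2 fold change from −0.20 to 0.28. Mapk10, which encodes JNK3, the JNK of nervous tissue, was too low to test, at 0 to 2 reads per liver.

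Mapk14, which encodes p38 alpha, was the most abundant MAP kinase mRNA. It measured 15.7, 20.6, 24.3 and 21.2 FPKM in METTL3-HKD livers and 22.5, 22.7, 24.9 and 28.5 FPKM in METTL3-Flox livers. METTL3-HKD liver 3 overlapped the METTL3-Flox range, and the log2 fold change of −0.28 (95% interval from −0.60 to 0.04, limma adjusted p = 0.208) was −0.06 with scaling to reads on genes. The other p38 genes were low. Mapk13 (p38 delta) had means of 0.419 and 0.111 FPKM and the widest interval of the cascade after log transformation, from −0.20 to 2.32, with METTL3-HKD liver 3 at 2 reads and METTL3-HKD liver 1 at 52 reads. Its adjusted p was 0.225 in limma, and 0.0231 without METTL3-HKD liver 3, so that this p38 gene passed the threshold without that liver. Mapk12 (p38 gamma) had means of 0.908 and 0.799 FPKM and Mapk11 (p38 beta) had 0.427 and 0.386 FPKM. Mapk7 (ERK5) had means of 1.31 and 0.958 FPKM, and Mapk4 (ERK4), with 2 to 15 reads per liver, was not tested. The summed level of the tier was 73.9 ± 2.80 FPKM against 75.1 ± 4.99 FPKM (SD, n = 4 each), with overlapping ranges.

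Downstream of the MAP kinases, both MK2 and MK3, which are activated by p38 and act on proteins that control the stability of cytokine mRNAs, had a higher mRNA level. Mapkapk2 (MK2, chr1:131053700-131097826, minus strand) measured 45.8, 43.6, 36.0 and 37.7 FPKM in METTL3-HKD livers and 32.7, 26.8, 29.3 and 27.0 FPKM in METTL3-Flox livers. The groups did not overlap, and the mean of 40.8 ± 4.70 FPKM against 28.9 ± 2.77 FPKM (SD, n = 4 each) was the highest mean of the cascade in both groups. Its range overlapped that of Map2k3 in METTL3-HKD livers (22.8 to 40.6 FPKM) and that of Map2k2 in METTL3-Flox livers, where Map2k2 was the more abundant in liver 4. The log2 fold change was 0.49 (SE 0.110, limma adjusted p = 0.0210), with an adjusted p of 0.0550 to 0.0580 without METTL3-HKD liver 1 or 2 or METTL3-Flox liver 2, 3 or 4.

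Mapkapk3 (MK3, chr9:107254927-107289877, minus strand) measured 2.05, 1.87, 1.35 and 1.43 FPKM against 0.813, 0.905, 0.653 and 0.729 FPKM. Its groups were also apart, and the means differed 2.16-fold (log2 fold change 1.01, SE 0.175, limma adjusted p = 0.00973). The ratio of Mapkapk2 to Mapkapk3, chosen after the values were seen, was 22.3 to 26.7 in METTL3-HKD livers and 29.6 to 44.8 in METTL3-Flox livers, so MK2 mRNA remained the more abundant by over an order of magnitude. Mapkapk5, which encodes the ERK3 partner MK5, had means of 1.37 and 1.09 FPKM with overlapping groups, and 56.5% of its annotated exon length is shared with Adam1a on the same strand. The tier summed to 38.7 to 49.6 FPKM in METTL3-HKD livers and 28.7 to 34.5 FPKM in METTL3-Flox livers, the one tier in which these ranges were apart. Mapkapk2 made up most of the mean sums of 43.8 and 30.8 FPKM, so this separation largely repeats that of Mapkapk2.

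**Figure D3:**
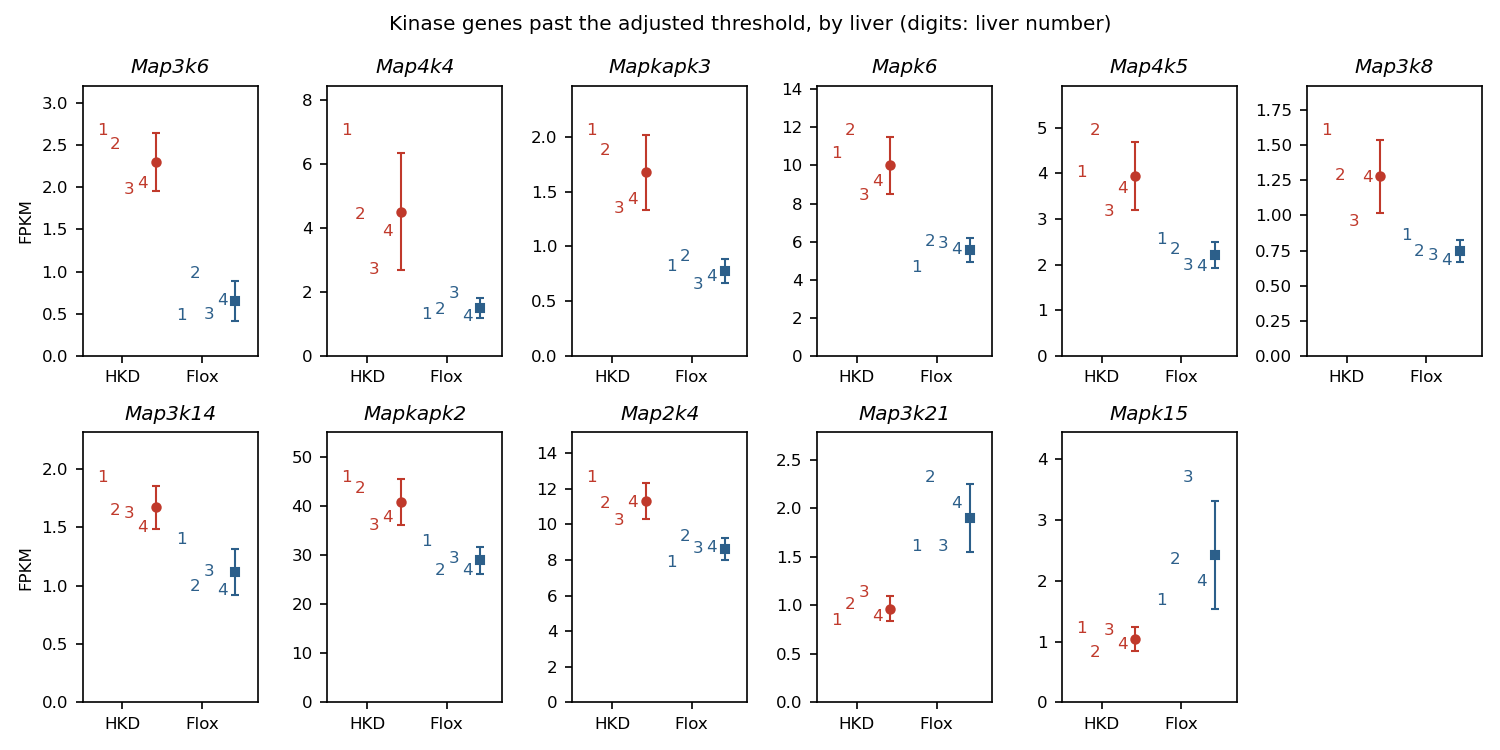
FPKM of the 11 kinase genes past the adjusted threshold, with each liver drawn as its number and the mean ± SD beside it (red circle, METTL3-HKD; blue square, METTL3-Flox; n = 4 each; each axis starts at 0). In each panel the groups are apart, and METTL3-HKD liver 1 is the highest of its group in 7 of the 9 higher genes, while liver 3 is the lowest in 8 of the 9.

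Within METTL3-HKD mice, the higher genes were ordered alike across livers. METTL3-HKD liver 1 was highest in 7 of the 9 and liver 2 in the other 2 genes, and liver 3 was lowest in 8 and liver 4 in 1. The summed neutrophil markers were also highest in liver 1 (1640 FPKM) and lowest in liver 3 (334 FPKM), as were the summed cholangiocyte markers (369, 192, 119 and 194 FPKM in the order of liver numbers). Most of the cholangiocyte sum was Spp1, at 355, 181, 109 and 186 FPKM. Krt19, Krt7 and Sox9 were highest in liver 1 but lowest in liver 4, and Epcam was highest in liver 2 and lowest in liver 3. The summed hepatocyte markers were lowest in liver 1 (22656 FPKM). The effective library size by which the deposited values had been divided includes depth, and a larger divisor gives a lower FPKM for the same reads. Relative to its geometric mean over all livers, this divisor was highest in liver 1 (1.18) and lowest in liver 3 (1.06) of METTL3-HKD mice. It was lower in all METTL3-Flox livers, at 0.835 to 0.950. The part of any of these in the kinase values was not tested. No such order was seen among METTL3-Flox livers, where livers 1 and 2 were each highest in 4 of the 9 genes. Over all 42 tested kinases, METTL3-HKD liver 1 was highest of its group in 20 and liver 3 lowest in 23, and METTL3-Flox liver 1 was lowest of its group in 21. The order of livers was not counted over all genes tested, so it cannot be read as a trait of the kinases. The pathway genes counted below also summed highest in METTL3-HKD liver 1 and lowest in liver 3, at 1013, 862, 714 and 805 FPKM in METTL3-HKD livers 1 to 4.

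Levels of neighbouring kinases were also set against each other within each liver, which no scaling between livers can move. Of 5 further ratios within a step of the cascade, also chosen after the values were seen, Map2k4 to Map2k7 was 2.42 to 2.74 in METTL3-HKD livers and 1.66 to 2.11 in METTL3-Flox livers, and Map4k3 to Map4k4 was 1.03 to 2.82 and 5.14 to 6.60. Both ratios were apart between the groups. Each holds a gene already past the threshold with groups apart, Map2k4 or Map4k4, so these ratios are no separate support for those calls. How often ratios of other genes are apart was not counted. The ratio of Mapk9 to Mapk8 overlapped, at 3.06 to 4.57 and 3.92 to 4.89, and so did those of Map2k3 to Map2k6 and of Map2k2 to Map2k1.

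The genes around the kinases were counted from 8 lists of 105 cascade genes. Of 99 tested, 35 were higher in METTL3-HKD livers (35.4%) and 1 was lower (1.01%), against the 9.05% and 6.63% of all genes given above. The 35 became 23 without METTL3-HKD liver 1 or METTL3-Flox liver 3, 22 without METTL3-Flox liver 2 and 20 without METTL3-Flox liver 4. In these fits, in the same order, the higher genes among all tested numbered 783, 747, 943 and 924, down from 1506. The 1 lower pathway gene became 2 without METTL3-HKD liver 2. The lists were written with earlier results of these data known, so their direction is not independent of them. Upstream, 7 of 20 small GTPases and exchange factors were higher. They included the GTPases Nras (log2 fold change 0.52) and Rras2 (0.82) and the exchange factor Rasgrp4 (2.06), which is known from myeloid cells. Among 12 tested cascade kinases with other symbols, such as the TAO kinases, 0 were higher and Araf was lower (−0.55, limma adjusted p = 0.0126).

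Downstream and feedback genes were counted in the same way, and their share was not tested against that of the kinases. Of 7 tested RSK, MSK and MNK kinases, which ERK and p38 activate, Rps6ka3 (RSK2; log2 fold change 0.93) and Rps6ka4 (MSK2; 0.53) were higher. Of 19 tested scaffolds and adaptors, 3 were higher, namely Ywhaz (0.55), Flna (1.15) and Tnip1 (0.57). Of 13 dual-specificity phosphatases, which dephosphorylate the MAP kinases, 8 were higher, among them Dusp4 (2.64), Dusp5 (4.71) and Dusp14 (2.17). Of 6 tested Sprouty and Spred inhibitors of ERK signalling, Spred1 (1.16), Spry2 (1.34) and Spry4 (1.14) were higher. All 7 AP-1 factors were higher, among them Fos (4.04), Fosl1 (4.85) and Jun (2.48), as were 5 of 15 tested other nuclear targets, among them Myc (1.60), Ets2 (1.25) and Max (0.62). The median log2 fold change was 1.99 over the AP-1 factors, 1.53 over the phosphatases and 0.16 over the kinases. Because these sets were chosen with earlier results of these data known, the gaps between the medians are not independent results.

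**Figure D4:**
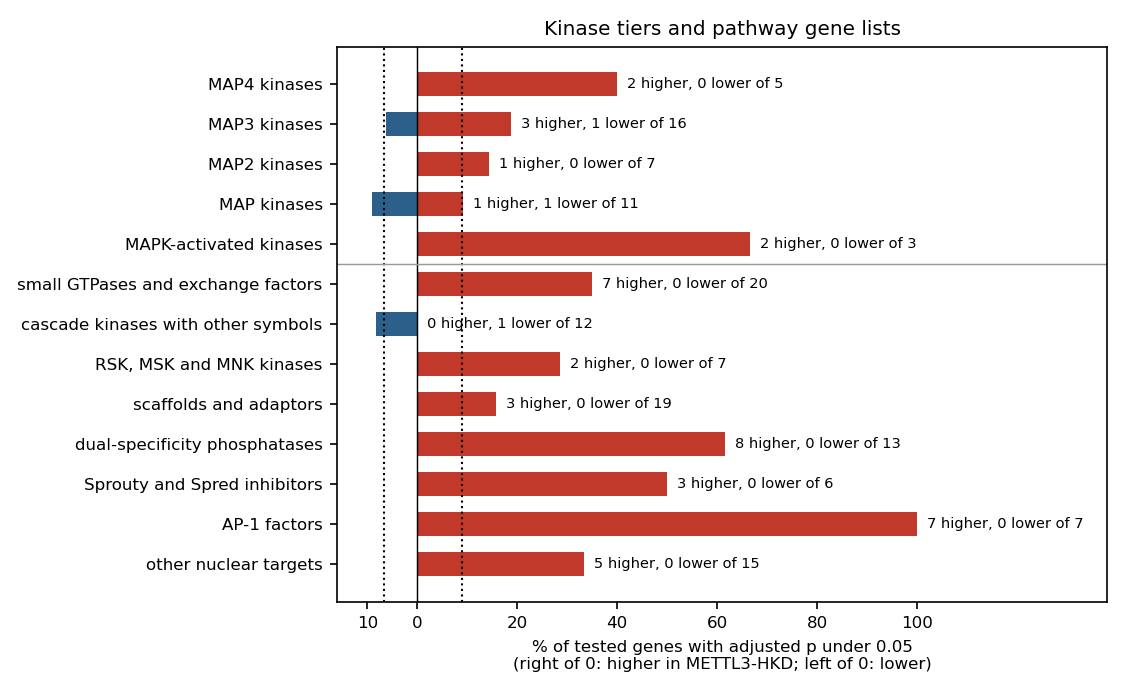
Share of tested genes with an adjusted p under 0.05, in percent, for the 5 kinase tiers (above the grey line) and the 8 pathway lists (below it), with higher genes to the right of 0 and lower genes to the left, and the counts written beside the bars. Dotted lines mark the shares over all genes tested, 9.05% higher and 6.63% lower, and the MAP kinases stand closest to them with 1 higher and 1 lower of 11.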

How the data were processed

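Libraries were made from liver RNA with a SMARTer mRNA-Seq kit, per the labels. The authors deposited FPKM for 54532 genes with each gene's length. The submitters' processing notes name GRCm38 (mm10), and the aligner, counter, annotation and strand setting are not given in the sources used here. Each of the 8 libraries was assigned to its group from the labels, and none was left out. FPKM multiplied by gene length and an effective library size per liver gave whole reads for 100% of non-zero values, so the values had been scaled between libraries. The tolerance was 0.05 read, or for the highest counts a small fixed share of the count. Read numbers speak to counting error only.

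The 16645 genes whose mean over the livers reached 0.1 FPKM were tested on log2(FPKM + 0.1), a scale that understates changes of low genes. The test was limma 3.58.1 (R 4.3.3; lmFit, then eBayes with trend), and p-values were adjusted by Benjamini-Hochberg across every tested gene. Thresholds were an adjusted p under 0.05 and, for calls of at least 2-fold, also a log2 fold change of 1 up or down. Exact permutation tests, two-sided, enumerated all 70 arrangements with scipy 1.17.1 in Python 3.11.15. The method was also run on simulated data with changes larger than those estimated for the kinases, so that run does not speak to the kinase calls.

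The kinases, pathway lists and markers were chosen with earlier results of these data known. Per-liver values are given for kinases past the adjusted threshold, for the MAP kinases that the study blotted, and for the most abundant kinase of each tier. Kinases with an unadjusted p under 0.05 are given with their log2 fold change, those too low to test are named, and of each pathway list up to 3 higher and 2 lower genes with the smallest p are named. Promoters are those of RefSeq on GRCm38.p6. Coordinates of genes are those of the deposited table. The alternatives were other pseudocounts (1 and 0.01 FPKM), a minimum mean of 1 FPKM or none, no mean-variance trend, liver quality weights, a replicate block, voom on the rebuilt reads, protein-coding genes only, scaling to reads on genes, and the omission of each liver in turn. Some single genes are counted in the totals and are not reported here.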

Additional observations from a re-analysis of the deposited data

Results flagged for a closer look

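Of 84 groups of 4 livers tested, 2 held a liver far from the other 3, where chance gives about 1 in 20 groups. Map3k2, which encodes MEKK2, measured 2.36 FPKM in METTL3-Flox liver 1 and 3.21 to 3.38 FPKM in the other METTL3-Flox livers, and this gap made up 0.831 of the group's range. Map2k6, which encodes the p38 activator MKK6, measured 0.204 FPKM in METTL3-Flox liver 1 and 0.884 to 1.01 FPKM in the other METTL3-Flox livers, with a gap of 0.847 of the range. Neither gene had passed the adjusted threshold. METTL3-Flox liver 1 was also the lowest of its group for 21 of the 42 tested kinases, which was not counted over all genes tested.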

How the results depend on the processing

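Of the 11 kinase genes past the threshold, 6 (Map4k4, Map4k5, Map3k6, Map3k21, Mapk6 and Mapkapk3) stayed past it in all 18 alternatives, and 0 of the 11 changed sign. The other 5 missed it in at least 1. Map3k8 passed in 10 of the 18, Map3k14 in 9, Map2k4 in 11, Mapkapk2 in 13 and Mapk15 in 17. With the replicate block, the limma adjusted p was 0.0535 for Map3k8, 0.0572 for Map3k14 and 0.0833 for Map2k4. Another 5 kinases passed the threshold in at least 1 alternative (Map3k2 and Map2k5 in 4 each, Map2k3 in 2, Mapk8 and Mapk13 in 1 each). With each liver left out in turn, the kinases numbered 5 to 10 higher, 1 to 3 lower, 2 to 4 upregulated and 0 to 1 downregulated 2-fold, the pathway genes 20 to 35 higher and 1 to 2 lower, and all genes 747 to 1659 higher (1506 in the report's fit) and 355 to 1148 lower (1104). With scaling to reads on genes, 5 kinases were upregulated and 0 downregulated 2-fold, 0 pathway genes were lower, and 2309 genes were higher and 374 lower. With a pseudocount of 1 FPKM, 0 kinases were downregulated 2-fold, and with no minimum, 682 genes were lower. Replicate numbers did not pair the livers (correlations of same-numbered livers of 0.07, −0.08, −0.01 and −0.03), and with the replicate block 6 kinases were higher and 2 lower, among 971 higher and 645 lower genes. Outside the 11, Map2k2 and Map2k7 turned to 0.15 with scaling to reads on genes, and liver quality weights turned Map3k1 to −0.025, Map3k5 to −0.062, Map3k15 to −0.038 and Mapk9 to −0.017. With a liver left out, log2 fold changes ranged from −0.022 to 0.16 for Map3k1, −0.052 to 0.084 for Map3k11, −0.12 to 0.10 for Map3k5, −0.11 to 0.10 for Map3k15, −0.68 to 0.083 for Map2k6 and −0.034 to 0.11 for Mapk9. The causes of these shifts were not tested, beyond the smaller number of livers or other set of genes that an alternative fits. With 4 livers per group, kinases near the minimum rest on few reads, and small differences among them could not be resolved.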
